A study of Lactuca sativa with 12 samples.

Results

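Lettuce (Lactuca sativa, cultivar ‘Salinas’) plants that had been in the cold for 24 h were compared with plants in the cold for 4 h, across every gene that reached 0.5 CPM in 2 or more of these 6 samples. CPM is the number of reads of a gene per 1000000 reads of its library. This took in 21696 of the 23933 genes in the table and 6 of the 12 samples of the series, with 3 from warm plants (0 h) and 3 from each of the times 4 h, 24 h and 7 d. Of the 2237 genes left out, 1646 had no sample at that level, 591 had 1 sample, and 292 of them had no read in any of the 6 samples. In 159 genes the level was met through the 24 h samples alone and in 340 through the 4 h samples alone.

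The 24 h plants and the 4 h plants were of 1 cultivar, were 18 days old when the treatment began, and had been raised at 20 °C with 350 to 400 µmol m−2 s−1 of light. Both were then held at 4 °C with about 100 µmol m−2 s−1 under a 16 h photoperiod, and RNA came from all tissue above the ground. Temperature and light were therefore alike, so that the comparison asks which transcripts changed between the first hours and the first day in the cold. The clock hours at which treatment began and plants were harvested are not given in the sources used here. If all plants were moved at 1 hour, 24 h would be back at that hour and 4 h would not, so time in the cold and time of day cannot be told apart. Whether 1 replicate is a single plant or a pool of plants is not given either. The p-values of the main test (limma) measure the spread between replicates in every group of the series, and not in the 24 h and 4 h samples alone. RNA of a whole shoot also cannot separate fewer cells of a type from less RNA per cell.

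Cold acclimation is the gain in frost hardiness that chilling brings about in many species. In Arabidopsis the CBF/DREB1 proteins, transcription factors with an AP2 DNA-binding domain, appear within hours of cold and switch on genes whose products protect cells, among them dehydrins and enzymes for sugars and proline. Calcium signals and the circadian clock act upstream of the CBF genes in Arabidopsis. Dehydrins and other late embryogenesis abundant (LEA) proteins are very hydrophilic and guard membranes and proteins when water is withdrawn, as it is during freezing.

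At 24 h, 557 genes were higher than at 4 h (2.57% of those tested) and 877 were lower (4.04%), or 1434 in either direction (6.61%). A gene was counted as changed where its log2 fold change reached 1 or -1 and its adjusted p was no more than 0.01 with limma on log2(CPM + 1), a scale that understates changes of genes with few reads. On the log2(CPM + 1) scale the rises reached further than the falls: 33 genes rose by at least 3, whereas 4 fell by as much. The genes that fell were less abundant, with a median level of 11.5 CPM over the 6 samples, against 26.4 CPM for those that rose. With edgeR further falls passed -3, such as that of Ls8g67401.1 (-3.15, against -2.8 in limma), so the count of 4 depends on the scale. The genes that rose took 7.16, 7.30 and 6.53% of all reads at 24 h, against 1.98, 1.94 and 1.92% at 4 h. The genes that fell took 1.79, 1.86 and 2.40% at 24 h, against 5.47, 5.55 and 5.57% at 4 h. Most changes were near the threshold, with an absolute log2 fold change under 1.5 in 58.2% of the genes that rose and 67.3% of those that fell. The edgeR quasi-likelihood test on recovered reads called 692 genes higher (3.19%) and 1249 lower (5.76%), and these share 555 rises (99.6% of the limma list and 80.2% of the edgeR list) and 872 falls (99.4 and 69.8%) with limma. The median log2 fold change over all genes tested was -0.01. Across linkage groups the share of genes that rose ran between 1.92 and 2.89% and the share that fell between 2.99 and 4.77%.

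**Figure D1:**
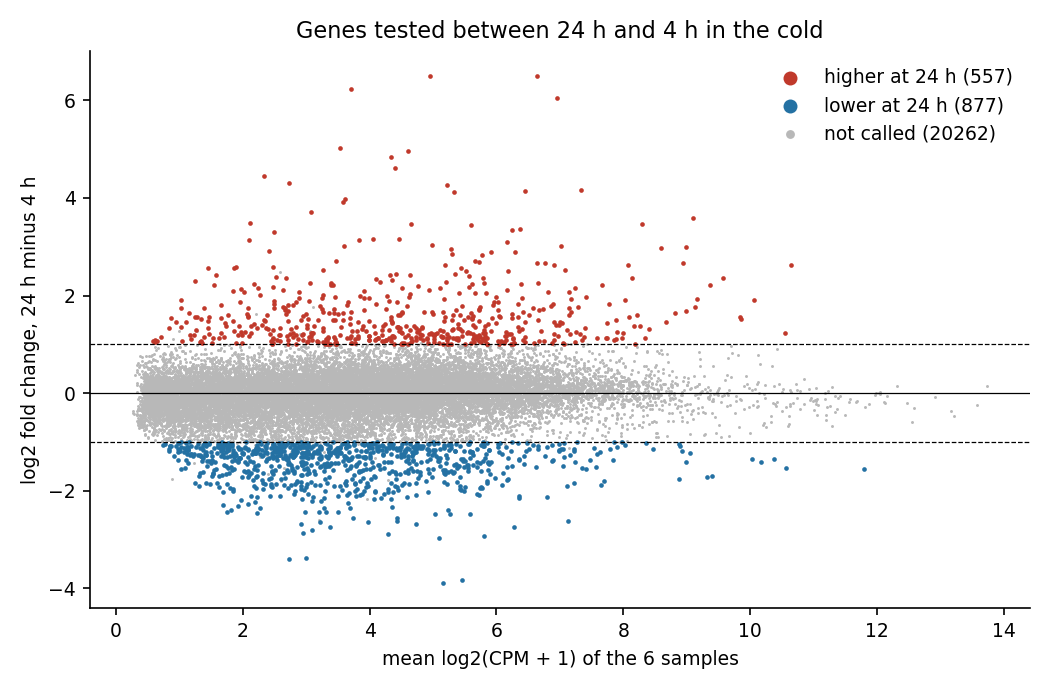
Each point is 1 of the 21696 genes tested, with its mean log2(CPM + 1) over the 6 samples on the x axis and its log2 fold change, 24 h minus 4 h, on the y axis; dashed lines mark 1 and -1. The 557 genes higher at 24 h extend to 6.50, while the 877 lower ones extend to -3.88.

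Library totals were 19377320 to 21109648 reads at 24 h and 18609189 to 18944670 reads at 4 h, so that 3 reads, taken here as the floor of what can be read as a level, were 0.142 to 0.161 CPM. The floor covers counting error only. Replicate 3 of 24 h stood apart from the other 2. It was the 24 h library nearest to the 4 h mean in 334 (60.0%) of the genes that rose and 617 (70.4%) of those that fell, and in 44.9% of all genes tested. Without it 610 genes were called higher and 964 lower. Leaf transcripts were abundant in all samples: the 5 genes described as Rubisco small chains summed to 21348 to 24175 CPM at 24 h and to 30229 to 31714 CPM at 4 h. For EIF2a (Ls6g95581.1) and IPP2 (Ls2g17540.1), reference genes of the study's qRT-PCR, the log2 fold changes were 0.37 and 0.03 with adjusted p of 0.0143 and 0.849 in limma, and neither was called.

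Gene descriptions came from the study's list of cold-regulated genes, which was chosen on these samples against 0 h and was used here only in part, for linkage groups 0 to 3 and some of 4. Of the 1434 called genes, 1058 therefore carry no description here. The 1920 tested genes taken as that list include the 10 tested LsCBF genes, 6 of them lower at 24 h. Of the 1920, 177 (9.22%) were higher at 24 h than at 4 h and 267 (13.9%) were lower, with a median log2 fold change of -0.29. The counts of the gene groups below are to be read against these shares and not as independent evidence. Descriptions are best matches to proteins of other species, so roles are those of the matched protein.

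The LsCBF genes were lower at 24 h. Of the 14 LsCBF genes, 11 were in the table and 10 were tested, of which 6 fell and none rose. All 10 had a negative log2 fold change with an unadjusted p under 0.05 in limma, with a median of -1.10 (-1.42 with edgeR). An unadjusted p under 0.05 in limma was reached, in either direction, by 9693 of all 21696 genes tested. Counts at that level, here and below, are to be read against this share. The 11 genes summed to 112, 116 and 164 CPM in the 24 h samples, against 322, 324 and 327 CPM in the 4 h samples. In 9 of the 10 the values at the 2 times did not overlap, which was so for 55.2% of all genes tested. It was also so for all 557 genes called higher and all 877 called lower. A lack of overlap in a called gene, here and below, therefore adds nothing to its call. LsCBF2, LsCBF6 and LsCBF13 were not analysed here.

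LsCBF10 (Ls9g54860.1) had the most negative log2 fold change of the family on the log2(CPM + 1) scale, although LsCBF4, with few reads, was lower by more as a ratio. LsCBF10 had 6.35, 5.47 and 12.4 CPM at 24 h, against 34.6, 40.4 and 36.9 CPM at 4 h, a log2 fold change of -2.15 ± 0.21 (SE, adjusted p = 1.19e-05, limma). Its highest 24 h sample, replicate 3, was still well under its lowest 4 h sample. LsCBF12 (Ls9g54680.3) had 11.6, 12.4 and 22.4 CPM at 24 h, against 46.9, 46.1 and 49.4 CPM at 4 h (-1.61 ± 0.20, adjusted p = 7.04e-05, limma). LsCBF7 (Ls9g54581.2) had 17.9, 20.8 and 25.8 CPM at 24 h, against 55.2, 67.6 and 56.3 CPM at 4 h (-1.44 ± 0.15, adjusted p = 1.51e-05, limma). Replicate 3 was the highest 24 h sample in each of the 3 genes.

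LsCBF11 (Ls9g54780.1) had 55.9, 52.4 and 73.7 CPM at 24 h, against 135, 130 and 138 CPM at 4 h, a log2 fold change of -1.15 ± 0.14. LsCBF5 (Ls9g54101.3) had 1.08, 1.33 and 2.60 CPM at 24 h, against 4.86, 5.38 and 4.94 CPM at 4 h (-1.22 ± 0.17). LsCBF9 (Ls9g54880.1) had 2.22, 2.00 and 3.13 CPM at 24 h, against 5.86, 6.02 and 6.23 CPM at 4 h (-1.04 ± 0.17). All 3 passed the test and, like every called gene, did not overlap between the times. LsCBF9 lay at the threshold and was not called without 24 h replicate 2 (-0.95).

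The remaining 4 tested members were not called. LsCBF14 (Ls9g114720.1) had 16.4, 20.0 and 22.4 CPM at 24 h, against 36.1, 25.1 and 30.5 CPM at 4 h (-0.61, 95% interval -1.02 to -0.21, adjusted p = 0.022, limma), the smallest gap among the abundant members. LsCBF3 (Ls9g53921.1) had 0.361, 0.713 and 0.947 CPM at 24 h, against 1.43, 1.55 and 2.36 CPM at 4 h (-0.73), and LsCBF8 (Ls9g54900.1) differed by -0.40 with overlapping values. LsCBF4 (Ls9g53960.1) had 1, 1 and 3 reads at 24 h, which is at the floor, against 15, 7 and 20 reads at 4 h, so it was at least 4.82-fold lower. This gene reached 0.5 CPM at 4 h alone. It passed the filter through the time at which it was high and could not have counted as a rise. The edgeR test called LsCBF4 (adjusted p = 0.00595) where limma gave -0.67 on its compressed scale, which makes 7 LsCBF falls under edgeR. LsCBF1 (Ls2g130641.1) was below the level required for testing, with 3, 5 and 2 reads at 24 h and 6, 5 and 14 reads at 4 h.

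At 0 h the family summed to 14.3 to 20.7 CPM and at 7 d to 91.7 to 107 CPM, so the 24 h level lay between those of 0 h and 4 h and above all 7 d samples. LsCBF7 and LsCBF14 did not follow this order. The mean of LsCBF7 (Ls9g54581.2) was 23.1 CPM at 7 d and 21.5 CPM at 24 h, and that of LsCBF14 (Ls9g114720.1) was 51.1 CPM at 7 d, above its means at 24 h and 4 h. All 10 tested members lie on linkage group 9, several of them as tandem copies of similar sequence. How reads that match more than 1 copy were counted is not given in the sources used here, so the split between close copies is uncertain.

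**Figure D2:**
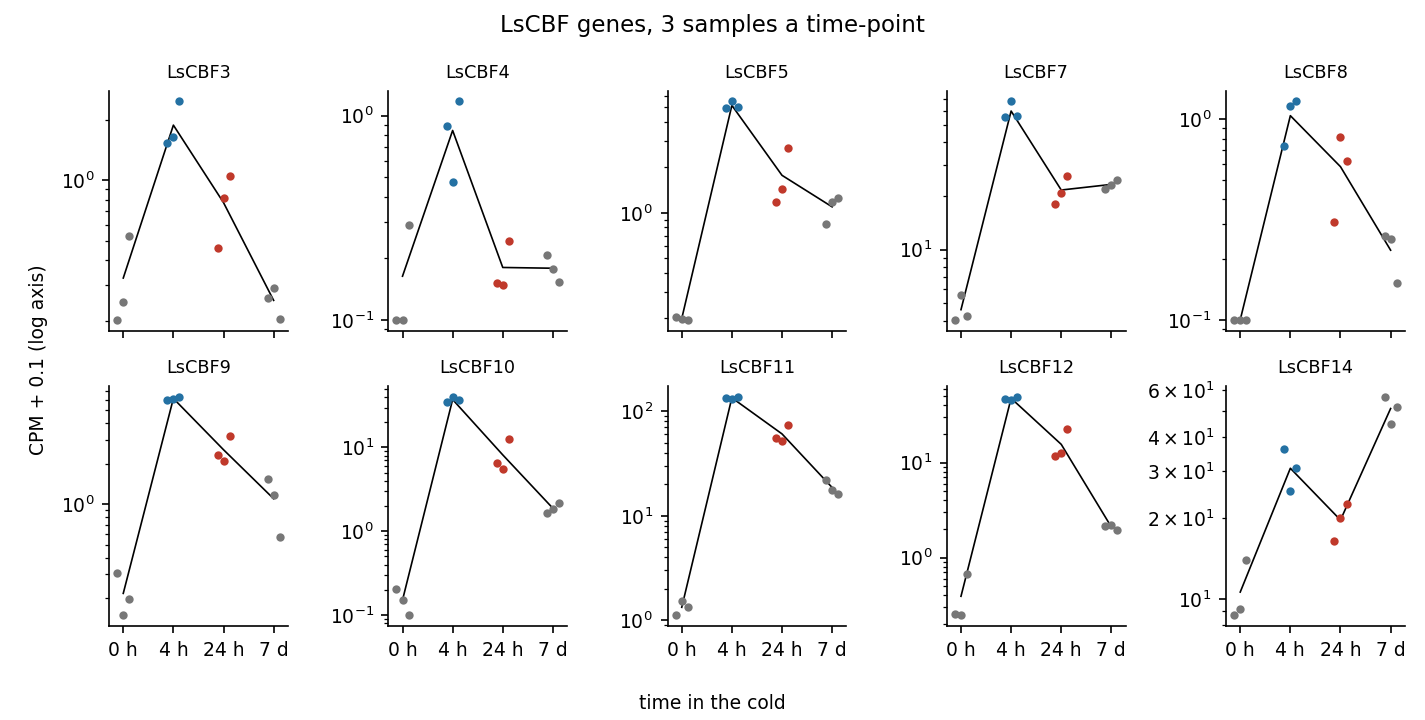
CPM + 0.1 (log axis) of the 10 tested LsCBF genes at the 4 time-points, with 1 point a sample and a line through the means of 3. In 9 of the 10 panels every 24 h point (red) lies under every 4 h point (blue), and LsCBF8 is the panel with overlap.

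The dehydrin and LEA genes went the other way. Of 10 tested, 8 rose and none fell in limma, edgeR or DESeq2, and 1 was below 0 at an unadjusted p under 0.05. COR47, DC-8 and EMB-1, described below, reached 0.5 CPM at 24 h alone. These genes passed the filter through the time at which they were high and could not have counted as falls. The median log2 fold change was 3.02 on the log2(CPM + 1) scale and 4.69 with edgeR, or 3.91 with the 2 genes at the floor at 4 h set to their lower bounds. The summed level of the 10 genes was 4307, 4938 and 4219 CPM in the 24 h samples, against 385, 409 and 393 CPM in the 4 h samples. Rab18 (Ls3g74801.1), a dehydrin that responds to abscisic acid in Arabidopsis, had 252, 316 and 318 CPM at 24 h, against 2.22, 2.56 and 2.04 CPM at 4 h. Its log2 fold change of 6.50 ± 0.20 (adjusted p = 4.96e-10, limma) was the largest of all described genes on the log2(CPM + 1) scale; with edgeR it was 7.02, against 7.81 for Mannan endo-1,4-beta-mannosidase 5 (Ls4g132740.2). A gene described as Cold-shock protein CS120 (Ls3g76921.1), a dehydrin named for its cold induction in wheat, had 959, 1025 and 1037 CPM at 24 h, against 13.9, 14.2 and 14.6 CPM at 4 h (6.05 ± 0.09, adjusted p = 8.3e-13, limma). A second CS120 gene (Ls3g77021.1) had 84.2, 124 and 106 CPM at 24 h, against 3.96, 1.97 and 4.19 CPM at 4 h (4.62 ± 0.24). In these 3 genes the lowest 24 h sample exceeded the highest 4 h sample by a wide margin.

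A pair of genes for ECP63, a LEA protein first named in carrot embryos, rose together. Ls2g24040.2 had 1926, 2146 and 1673 CPM at 24 h, against 148, 166 and 159 CPM at 4 h, a log2 fold change of 3.59 ± 0.14, and Ls2g23920.1 had 973, 1209 and 963 CPM at 24 h, against 86.6, 105 and 88.8 CPM at 4 h (3.47 ± 0.16). Dehydrin COR47 (Ls3g74761.1), in Arabidopsis a target of the CBF proteins, had 4.28, 7.04 and 6.02 CPM at 24 h, against 0.0528, 0.107 and 0.215 CPM at 4 h, which were 1, 2 and 4 reads (2.57 ± 0.22 in limma and 5.48 with edgeR). DC-8 (Ls2g23681.2), an embryo LEA protein, had 2.53, 2.76 and 3.69 CPM at 24 h and 3 reads or fewer in each 4 h library, so it was at least 18.6-fold higher. EMB-1 (Ls2g124221.1), another embryo protein, had 0.929, 1.81 and 1.04 CPM at 24 h and was likewise at the floor at 4 h, so it was at least 7.81-fold higher. Its call was lost without 24 h replicate 2, where the log2 fold change was 0.92 and the count of members that rose was 7.

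Of the last 2 members neither was called. Dehydrin Xero 1 (Ls3g75820.1) had 9.34, 10.98 and 9.66 CPM at 24 h, against 7.71, 9.54 and 6.66 CPM at 4 h, with overlap between the times (0.30, 95% interval 0.01 to 0.59). Lea14 (Ls1g82580.3) had 95.7, 95 and 102 CPM at 24 h, against 122, 109 and 117 CPM at 4 h (-0.25, adjusted p = 0.0505, limma). At 7 d the list summed to 1756 to 1871 CPM and at 0 h to 150 to 177 CPM, so the 24 h samples were the highest of the series. All 5 listed dehydrins carry linkage group 3 in their IDs. Descriptions were used only for linkage groups 0 to 3 and some of 4, so dehydrins elsewhere could not be listed. How reads shared within the CS120 pair or the ECP63 pair were counted is not given in the sources used here.

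**Figure D3:**
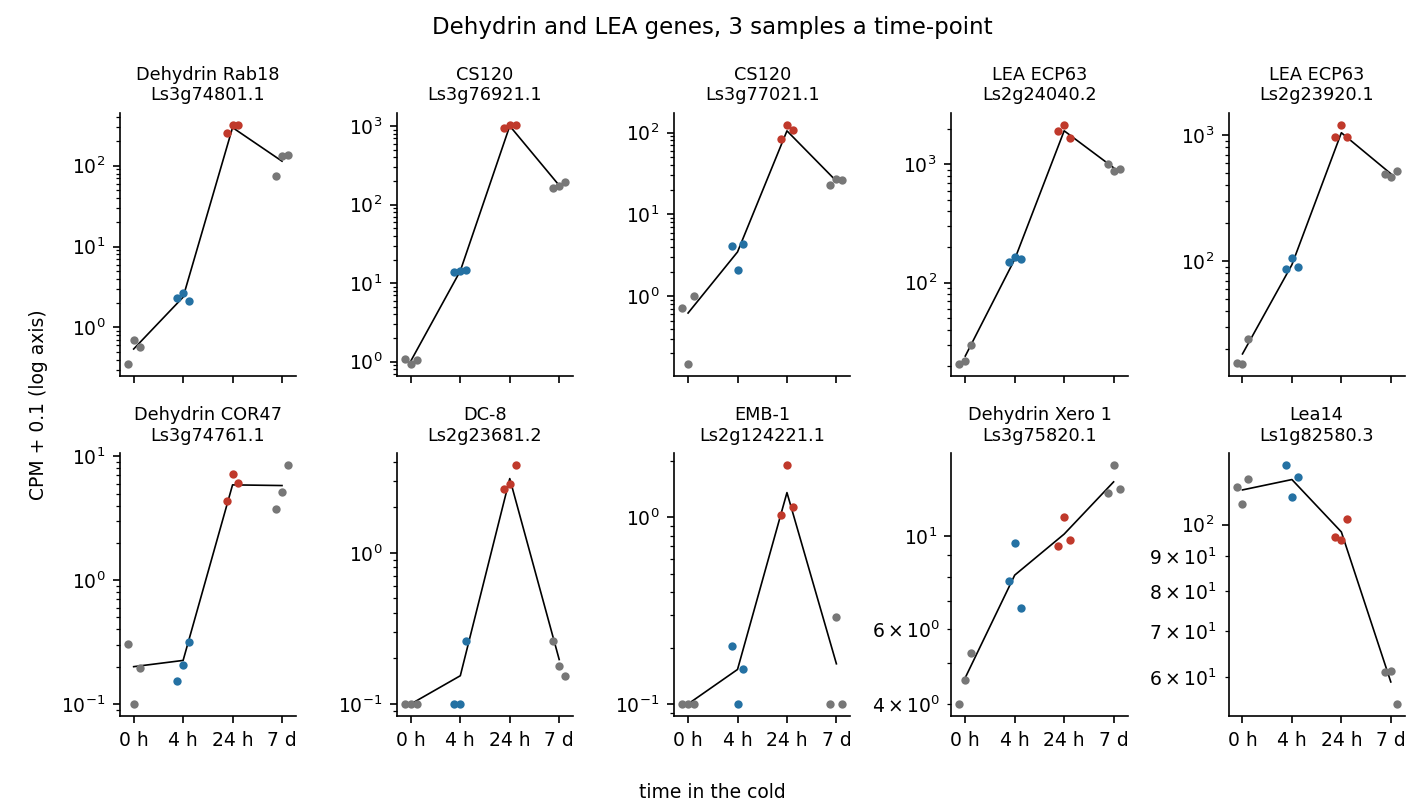
CPM + 0.1 (log axis) of the 10 dehydrin and LEA genes at the 4 time-points, with 1 point a sample and a line through the means of 3, ordered by log2 fold change. Every 24 h point (red) lies above every 4 h point (blue) in the 8 genes called, whereas Xero 1 overlaps and Lea14 lies lower.

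Added up over the other lists, the falls outnumbered the rises. The sugar, lipid, chaperone, ribosome and flavonoid lists each had more rises than falls in limma. Apart from the LsCBF genes, the lists came from the study's cold-regulated genes. The 1920 tested genes taken as that source, LsCBF genes included, had a median of -0.29, with 1199 below 0. A median below 0 alone therefore does not set a list apart. Those of the sugar (-0.08), chaperone (-0.23) and photosynthesis (-0.28) lists lay above -0.29. The plot of list members shows a median below 0 for 17 of the 20 lists and a median above 0 for the dehydrins, for the ribosome genes and for the antioxidant genes, of which only the dehydrins are past 1.

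**Figure D4:**
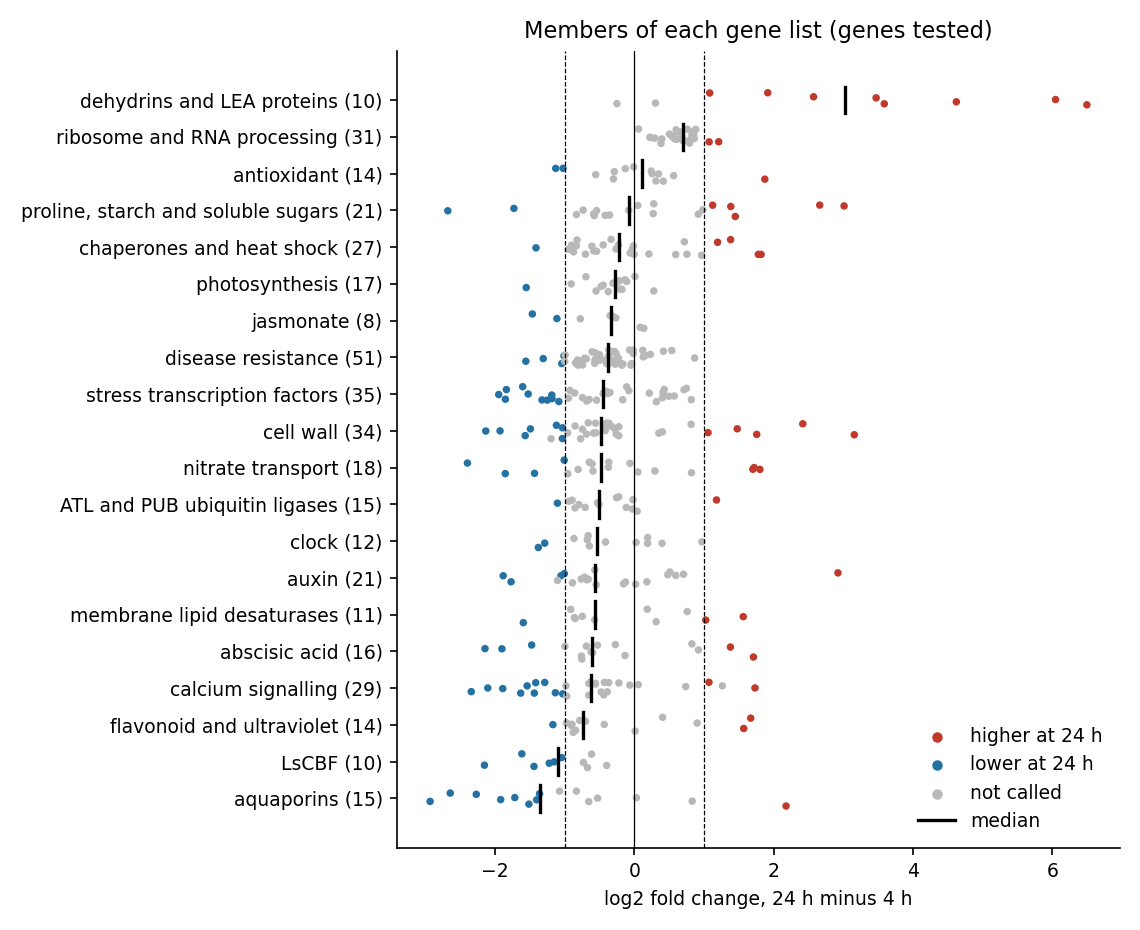
Log2 fold change, 24 h minus 4 h, of each tested member of the 20 gene lists, with the number tested in brackets and black bars at the medians; dashed lines mark 1 and -1. The medians run between -1.36 for aquaporins and 3.02 for dehydrins and LEA proteins.

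Genes for compatible solutes and sugars split. Of 21 tested, 5 rose and 2 fell, with a median log2 fold change of -0.08. The P5CS gene (Ls2g117820.3), for the enzyme that starts proline synthesis from glutamate, had 210, 196 and 184 CPM at 24 h, against 72.1, 71.0 and 70.7 CPM at 4 h (1.45 ± 0.10, adjusted p = 8.05e-07, limma). The 4 h level was that of the warm plants, whose mean was 70.6 CPM. Beta-fructofuranosidases, or invertases, split sucrose into glucose and fructose, and their genes moved in both directions. The soluble isoenzyme gene Ls2g125121.3 had 1346, 1239 and 1119 CPM at 24 h, against 229, 160 and 198 CPM at 4 h (2.66 ± 0.15), and Ls3g3061.1 had 24.9, 35.9 and 41.2 CPM at 24 h, against 2.64, 4.64 and 2.74 CPM at 4 h (3.01 ± 0.28). The acid beta-fructofuranosidase Ls3g2180.1 instead had 1.08, 1.52 and 4.07 CPM at 24 h, against 16.2, 23.6 and 15.5 CPM at 4 h (-2.68 ± 0.35). Like every called gene, these 3 did not overlap between the times. The sucrose transporter SUC4 (Ls1g221.1) rose by 1.12 and Sucrose-phosphatase 1 (Ls1g56881.1), the last step of sucrose synthesis, by 1.38 on the log2 scale, whereas Trehalose-phosphate phosphatase A (Ls2g129041.2), which turns trehalose 6-phosphate into trehalose, fell by 1.73.

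Among 11 genes of membrane lipid synthesis and desaturation, 2 rose and 1 fell. Digalactosyldiacylglycerol synthase 1 (Ls1g58180.3), which makes a main galactolipid of chloroplast membranes, had 478, 458 and 467 CPM at 24 h, against 147, 169 and 158 CPM at 4 h (1.56 ± 0.12, adjusted p = 1.5e-06, limma). All 3 samples at 24 h thus lay far over those at 4 h, while the means at 0 h and 7 d were 106 and 135 CPM. A palmitoyl-monogalactosyldiacylglycerol desaturase (Ls1g34480.2) rose by 1.03, a call that was lost without 24 h replicate 2 (0.98) or 4 h replicate 2 (1.00). A gene described as Delta(12) fatty acid desaturase DES8.11 (Ls3g133940.2) had 8.15, 7.23 and 6.87 CPM at 24 h, against 31.6, 22.4 and 20.4 CPM at 4 h (-1.59 ± 0.22). A second member of the list fell without 4 h replicate 2.

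Among calcium signalling genes the falls outnumbered the rises. Of 29 tested, 10 fell, 2 rose and 17 were not called, with a median of -0.63. The log2 fold change was below 0 in 24 of the 29, against 1199 of the 1920 tested genes of the study's list and 10960 of all 21696. CML23 (Ls4g156941.1), a calmodulin-like calcium sensor, had 5.52, 7.37 and 12.6 CPM at 24 h, against 48.2, 38.4 and 48.7 CPM at 4 h (-2.34 ± 0.22, adjusted p = 9.64e-06, limma). PBP1 (Ls1g53381.1), a small calcium-binding partner of the kinase PINOID in Arabidopsis, had 1.14, 1.24 and 0.947 CPM at 24 h, against 5.96, 7.78 and 11.1 CPM at 4 h (-2.10 ± 0.18). Their warm means were 7.94 and 0.446 CPM, so CML23 was back at about its warm level at 24 h and PBP1 was not. A gene described as Ole e 8 (Ls3g53980.1), a calcium-binding pollen allergen of olive, had 23.2, 35.9 and 48.1 CPM at 24 h, against 150, 109 and 133 CPM at 4 h (-1.89 ± 0.23). Calcium-transporting ATPase 2 (Ls4g160760.1), a pump that removes calcium from the cytosol, fell by 1.54 and Calcium-dependent protein kinase 28 (Ls4g144881.1) by 1.42. A mitochondrial proton/calcium exchanger (Ls1g76500.2) was the clear exception, with 207, 195 and 180 CPM at 24 h, against 56.7, 57.9 and 58.4 CPM at 4 h (1.73 ± 0.10). Calcium-dependent protein kinase 4 (Ls3g48441.3) rose by 1.07, a call lost without 24 h replicate 2 (0.95), which left 1 member higher.

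Transcription factors of the WRKY, ERF, ZAT and NAC families, many of them fast responders to stress, gave 10 falls and no rise among 35 tested, with a median of -0.45. No member was called higher by the edgeR test either, while DESeq2 called 1. Above 0 were 10 members, up to 0.82, of which 6 had an unadjusted p under 0.05 in limma. WRKY46 (Ls3g139241.1) had 11.1, 9.75 and 8.15 CPM at 24 h, against 45.1, 27.6 and 41.3 CPM at 4 h (-1.85 ± 0.17, adjusted p = 8.12e-06, limma). WRKY70 (Ls2g126880.1) had 14.5, 12.6 and 12.1 CPM at 24 h, against 50.5, 36.7 and 64.0 CPM at 4 h (-1.84 ± 0.19). Both act in salicylic acid responses in Arabidopsis, and both had 4 h replicates that spread more than their 24 h ones. Ethylene-responsive transcription factor 4 (Ls1g125981.1), a repressor, had 0.361, 0.999 and 1.04 CPM at 24 h, against 6.70, 3.36 and 8.49 CPM at 4 h (-1.95 ± 0.24 in limma and -2.92 with edgeR). The other 7 were WRKY4, WRKY7, ERF1B, ERF5, NAC79 and 2 ZAT10 genes, with log2 fold changes between -1.60 and -1.08. Of 15 ATL and PUB ubiquitin ligases, which mark proteins for breakdown, ATL66 (Ls2g124020.1) rose by 1.18 and PUB23 (Ls1g58201.1) fell by 1.10. The PUB23 call was lost without 24 h replicate 1 (-1.07, adjusted p = 0.0108), 24 h replicate 2 (-1.04, adjusted p = 0.0112) or 4 h replicate 1 (-0.84) in limma.

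Genes of the hormone abscisic acid, which rises when water is short, showed 2 rises and 3 falls among 16 (2 and 4 with edgeR). The median log2 fold change was -0.61, and 12 of the 16 were below 0. In limma 11 were below 0 and 4 above at an unadjusted p under 0.05. On the side of synthesis, Xanthoxin dehydrogenase (Ls2g105900.1) had 28.6, 22.5 and 27.7 CPM at 24 h, against 9.45, 6.08 and 6.72 CPM at 4 h (1.71 ± 0.18, adjusted p = 1.71e-05, limma). On the side of breakdown, Abscisic acid 8'-hydroxylase 1 (Ls3g20400.1) had 29.8, 32.5 and 56.5 CPM at 24 h, against 172, 159 and 183 CPM at 4 h (-2.14 ± 0.24, adjusted p = 3.49e-05, limma). The values of both enzymes were well separated between the times. Among response genes, ABSCISIC ACID-INSENSITIVE 5-like protein 5 (Ls4g126380.1), a bZIP activator, had 45.6, 40.8 and 37.2 CPM at 24 h, against 15.5, 14.9 and 15.1 CPM at 4 h (1.38 ± 0.15). The Ninja-family protein AFP3 (Ls3g97601.1), of a family that dampens the response in Arabidopsis, fell by 1.90 and the receptor PYL6 (Ls2g125581.1) by 1.47. None of 8 jasmonate genes rose in limma, edgeR or DESeq2 and 0 were above 0 at an unadjusted p under 0.05, while the repressor TIFY 9 (Ls3g31461.2) fell by 1.46 and Allene oxide synthase (Ls1g19560.1), an early enzyme of jasmonate synthesis, by 1.11.

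Aquaporins, channels for water and small solutes, had a median of -1.36, the lowest of the lists on the log2(CPM + 1) scale; with edgeR it was -1.35, against -1.42 for the LsCBF genes. Of 15 tested, 8 fell and 1 rose, and these counts stayed the same whichever of the 6 libraries was left out. The list summed to 1777, 1978 and 2326 CPM in the 24 h samples, against 3711, 3699 and 3542 CPM in the 4 h samples. The falls were concentrated in the PIP class of the plasma membrane, of which all 7 listed members fell. PIP2-4 (Ls2g108920.1) had 11.8, 13.3 and 44.5 CPM at 24 h, against 157, 168 and 138 CPM at 4 h (-2.93 ± 0.42, adjusted p = 0.000217, limma). Its replicate 3 at 24 h was more than 3 times the other 2 and still below every 4 h sample. PIP2-2 (Ls2g109001.2) had 1.70, 2.19 and 4.93 CPM at 24 h, against 20.1, 22.9 and 23.6 CPM at 4 h (-2.64 ± 0.27). The other 5 PIP genes had log2 fold changes between -1.92 and -1.36.

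Outside the PIP class the aquaporins varied. NIP2-1 (Ls3g101560.1) had 0.619, 0.571 and 1.85 CPM at 24 h, against 7.496, 9.12 and 8.44 CPM at 4 h (-2.27 ± 0.25). SIP1-2 (Ls2g59281.1), of a small class found in the endoplasmic reticulum, had 101, 107 and 91.7 CPM at 24 h, against 22.2, 20.7 and 20.7 CPM at 4 h (2.18 ± 0.09, adjusted p = 9.15e-09, limma). It was the only aquaporin that rose. The 3 tonoplast (TIP) genes gave -1.07, -0.83 and -0.65 without being called, the first with an adjusted p of 0.0491 in limma, and a NIP5-1 gene (Ls3g13220.1) gave 0.03 with overlapping values.

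**Figure D5:**
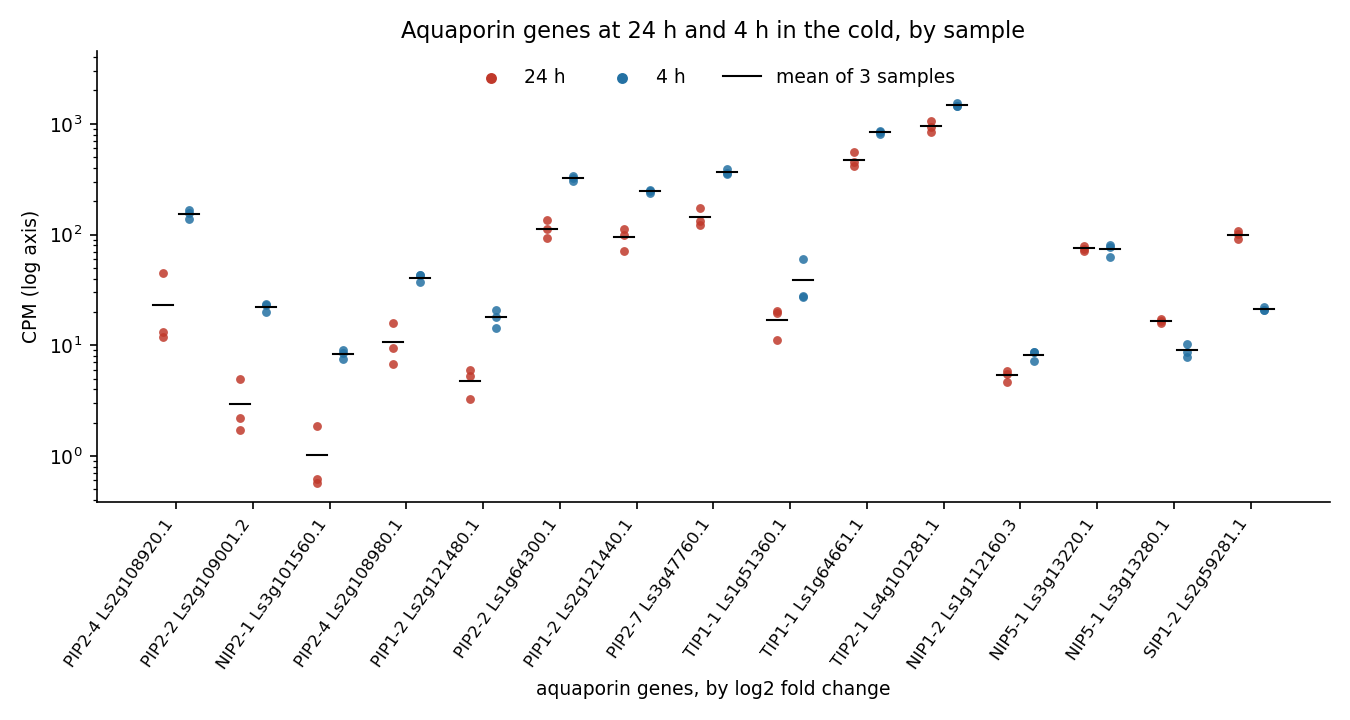
CPM (log axis) of the 15 aquaporin genes in the 3 samples of 24 h (red, left) and of 4 h (blue, right), with bars at the means, ordered by log2 fold change. The 7 PIP genes and NIP2-1 lie lower at 24 h in every sample, and SIP1-2 lies at 91.7 to 107 CPM at 24 h, against 20.7 to 22.2 CPM at 4 h.

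Nitrate transporter genes included 3 that rose and 4 that fell among 18, with a median of -0.48. The high-affinity transporter NRT2.1 (Ls1g62501.1), which in Arabidopsis takes up nitrate mostly in roots, had 0.103, 0.475 and 1.23 CPM at 24 h, against 5.49, 6.77 and 9.51 CPM at 4 h (-2.40 ± 0.25, adjusted p = 1.87e-05, limma). Its 24 h mean of 0.603 CPM compares with 1.20 CPM in warm plants. NRT1/PTR FAMILY 2.11 (Ls4g107200.1) had 120, 117 and 107 CPM at 24 h, against 32.1, 32.2 and 31.8 CPM at 4 h (1.80 ± 0.11), and NRT1/PTR FAMILY 1.2 (Ls1g47261.1) had 89.3, 98.6 and 97.0 CPM at 24 h, against 27.9, 28.4 and 28.0 CPM at 4 h (1.72 ± 0.14). Members of this family move nitrate, peptides, glucosinolates or hormones, so the transported compound of these genes is not known from the name. NRT2.7 (Ls2g91541.1) had 117, 135 and 98.2 CPM at 24 h, against 24.4, 66.1 and 26.1 CPM at 4 h (1.70 ± 0.31), without overlap although 4 h replicate 2 was well over the other 2. NRT1/PTR FAMILY 8.1 (Ls1g16521.1), whose Arabidopsis match carries dipeptides, fell by 1.85.

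Cell wall genes gave 5 rises and 7 falls among 34, with a median of -0.48, and 26 of the 34 lay below 0, against 1199 of the 1920 tested genes of the study's list. The list summed to 1142, 1295 and 1594 CPM in the 24 h samples, against 2372, 2435 and 2285 CPM in the 4 h samples. Pectate lyase 15 (Ls2g43400.1), an enzyme that cuts pectin, had 43.8, 44.5 and 72.7 CPM at 24 h, against 232, 232 and 233 CPM at 4 h (-2.13 ± 0.16, adjusted p = 1.84e-06, limma), and its warm mean was 445 CPM. Pectinesterase inhibitor 7 (Ls2g128901.1) fell by 1.93 and a cellulose synthase-like protein G1 (Ls3g11741.1) by 1.57. Other wall genes rose. Expansin-like A1 (Ls3g47800.1) had 56.2, 70.1 and 69.8 CPM at 24 h, against 8.13, 5.06 and 6.34 CPM at 4 h (3.16 ± 0.15), and a polygalacturonase (Ls1g40460.1), which also cuts pectin, had 45.8, 59.0 and 66.8 CPM at 24 h, against 9.08, 13.4 and 7.58 CPM at 4 h (2.42 ± 0.20). A xyloglucan endotransglucosylase/hydrolase (Ls2g80380.1) rose by 1.76, a call lost without 24 h replicate 2 (1.53, adjusted p = 0.0133) or 4 h replicate 2 (1.52, adjusted p = 0.0117) in limma.

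In the auxin list, 1 of 21 members rose and 4 fell, and 2 fell without 4 h replicate 1. The PIN-LIKES proteins, carriers that hold auxin in the endoplasmic reticulum, were at both ends. PIN-LIKES 7 (Ls2g73941.1) had 15.4, 12.9 and 12.6 CPM at 24 h, against 0.897, 1.28 and 0.645 CPM at 4 h (2.92 ± 0.16, adjusted p = 1.03e-07, limma). PIN-LIKES 3 (Ls2g73001.2) had 5.01, 4.09 and 7.72 CPM at 24 h, against 24.1, 19.2 and 25.4 CPM at 4 h (-1.88 ± 0.17, adjusted p = 7.41e-06, limma). A SAUR50 gene (Ls3g74220.1), of a family that promotes cell expansion, fell by 1.77, while a second one (Ls1g52081.1) fell by 1.05 and lost its call without 4 h replicate 1 (-0.92).

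Ribosome and RNA-processing genes leaned upwards by amounts mostly below the threshold. All 31 tested had a log2 fold change above 0, with a median of 0.69, and 2 rose, with no fall in limma, edgeR or DESeq2 and 0 below 0 at an unadjusted p under 0.05. Of the 1920 tested genes of the study's list 721 were above 0, and of all 21696 genes tested 10736 were. The 32 listed genes summed to 2983, 2617 and 2538 CPM in the 24 h samples, against 1681, 1665 and 1689 CPM in the 4 h samples, and to 3444 to 3761 CPM at 7 d. Nucleolar protein 56 (Ls1g29280.1), part of the particles that guide ribosomal RNA methylation, had 54.9, 47.1 and 44.9 CPM at 24 h, against 19.6, 19.2 and 22.8 CPM at 4 h (1.21 ± 0.10, adjusted p = 4.91e-06, limma). A 28S ribosomal RNA methyltransferase (Ls2g49000.1) had 106, 94.8 and 91.0 CPM at 24 h, against 45.5, 47.6 and 43.8 CPM at 4 h (1.07 ± 0.09). Both sets of 3 values were far apart.

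Photosynthesis genes showed 1 fall among 17 and no rise, with a median of -0.28, and a second fall without 24 h replicate 3. The edgeR test and DESeq2 gave 1 fall and no rise as well, and 1 member was above 0 at an unadjusted p under 0.05 in limma. One Rubisco small chain gene (Ls2g79581.1), a subunit of the enzyme that fixes carbon dioxide, had 1826, 1798 and 2713 CPM at 24 h, against 6228, 5890 and 6122 CPM at 4 h (-1.55 ± 0.14, adjusted p = 6.86e-06, limma). The other 4 small chain genes had log2 fold changes between -0.55 and -0.21 and were not called. These copies are similar, so their shares of the reads are uncertain.

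In the flavonoid and ultraviolet list, 2 of 14 members rose and 1 fell, with a median log2 fold change of -0.74. The edgeR test and DESeq2 each called 2 higher and 4 lower. In limma 8 members were below 0 and 3 above at an unadjusted p under 0.05. Naringenin dioxygenase (Ls3g74560.1), an early enzyme of flavonol and anthocyanin synthesis, had 287, 242 and 243 CPM at 24 h, against 79.6, 74.6 and 85.7 CPM at 4 h (1.67 ± 0.11, adjusted p = 4.5e-07, limma). UVR8 (Ls2g118081.1), the receptor for ultraviolet-B, had 83.6, 82.6 and 72.3 CPM at 24 h, against 24.9, 26.8 and 26.6 CPM at 4 h (1.57 ± 0.16), and its warm mean was 6.82 CPM. Both, like every called gene, were separated from their 4 h values in every sample. A flavonoid 3',5'-hydroxylase gene (Ls3g11961.1) fell by 1.17, and the number of falls in the list was 2 without 24 h replicate 2 or 24 h replicate 3 and 4 without 4 h replicate 2. Chalcone synthase (Ls2g76880.1), the entry to the pathway, gave 0.41 with an adjusted p of 0.13 in limma.

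The list of chaperones, which keep proteins folded, also takes in heat stress transcription factors. It gave 4 rises and 1 fall among 27, with a median of -0.23, and 2 falls without 24 h replicate 3 or 4 h replicate 2. Heat stress transcription factor B-2a (Ls2g133880.1) had 44.0, 51.2 and 37.1 CPM at 24 h, against 12.1, 11.3 and 12.6 CPM at 4 h (1.78 ± 0.12), and a Heat shock cognate 70 kDa gene (Ls2g116640.1) had 9.65, 6.42 and 13.8 CPM at 24 h, against 2.16, 2.29 and 1.56 CPM at 4 h (1.82 ± 0.25). The warm mean of the first was 30.4 CPM, above its 4 h level. Among 14 antioxidant genes 1 rose and 2 fell. Glutathione S-transferase F11 (Ls3g87760.1) rose by 1.87, and Monodehydroascorbate reductase 4 (Ls2g91720.1), which renews ascorbate, fell by 1.02 and lost its call without 24 h replicate 1 (-0.98), 24 h replicate 2 (-0.99) or 4 h replicate 2 (-0.99). Disease resistance genes, mostly receptors of the NLR type, gave 4 falls and no rise among 51, with a median of -0.37, and 2 falls without 24 h replicate 1. There edgeR called 7 lower and 1 higher and DESeq2 8 lower and 1 higher, and 2 were above 0 at an unadjusted p under 0.05 in limma. The most negative log2 fold change in limma was that of a TMV resistance protein N gene (Ls1g91940.1), which had 9.55, 8.04 and 10.9 CPM at 24 h, against 29.9, 26.4 and 33.3 CPM at 4 h (-1.56 ± 0.20).

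Clock genes are given because the hours of harvest are not known. Of 12 tested, 2 fell and none rose in limma, with a median of -0.53, and 3 were above 0 at an unadjusted p under 0.05. REVEILLE 1 (Ls3g67100.1), a MYB-like factor close to the clock, had 96.0, 101 and 134 CPM at 24 h, against 282, 283 and 290 CPM at 4 h (-1.38 ± 0.14, adjusted p = 1.52e-05, limma). LNK2 (Ls1g114861.2), a coactivator of the clock, had 47.8, 51.9 and 65.4 CPM at 24 h, against 122, 148 and 136 CPM at 4 h (-1.29 ± 0.24, adjusted p = 0.00139, limma). Neither overlapped between the times, as was so for every called gene. PRR1 (Ls1g14320.1), a repressor also known as TOC1, had 34.0, 35.8 and 28.4 CPM at 24 h, against 16.8, 17.1 and 14.7 CPM at 4 h (0.97 ± 0.15). It missed the fold threshold and was called higher by edgeR (1.02), by DESeq2 (1.01) and without 24 h replicate 3 (1.07) or 4 h replicate 2 (1.01).

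The other clock members were not called. LHY (Ls3g140720.1), a morning repressor, had 46.2, 56.0 and 56.2 CPM at 24 h, against 61.0, 79.5 and 71.7 CPM at 4 h (-0.41, adjusted p = 0.0368, limma). REVEILLE 8 (Ls2g109801.1) gave -0.68, PRR37 (Ls2g115441.2) gave -0.66, the 3 Cyclic dof factors gave -0.87 to 0.19, and EARLY FLOWERING 3 (Ls3g25981.2) gave 0.40. LNK4 (Ls1g118261.3) had 48.9, 52.2 and 52.7 CPM at 24 h, against 46.8, 49.95 and 54.65 CPM at 4 h, and was the only member of the list whose values overlapped. Values did not overlap in 1414 of the 1920 tested genes of the study's list and in 55.2% of all genes tested. The list summed to 1217 to 1226 CPM at 24 h and 1476 to 1519 CPM at 4 h, and to 308 to 362 CPM at 0 h. Adagio protein 3 (Ls3g106121.1) was the most abundant member in the 24 h and 4 h samples and differed by 0.19. It rose from 555.6, 551.6 and 530.4 CPM in the 4 h samples to 657.5, 616.8 and 595.5 CPM in the 24 h samples. The summed level of the remaining members therefore fell by more than the sum of the whole list shows. The part of the clock in the other differences was not tested.

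Genes without a description were among the strongest changes. Ls4g84040.2 had 962, 1036 and 858 CPM at 24 h, against 9.03, 9.86 and 9.67 CPM at 4 h (6.50 ± 0.14, adjusted p = 2.05e-11, limma), and its mean at 7 d was higher still, 1544 CPM. Ls8g27820.3 showed the largest rise in CPM, with 3939, 4382 and 3664 CPM at 24 h, against 634, 674 and 629 CPM at 4 h. Ls6g19060.3 showed the largest fall on the log2(CPM + 1) scale, with 4.28, 4.56 and 26.3 CPM at 24 h, against 124, 178 and 114 CPM at 4 h (-3.88 ± 0.55), and Ls5g30860.1 followed with 4.49, 6.85 and 35.1 CPM at 24 h, against 167, 154 and 173 CPM at 4 h (-3.84 ± 0.50). In both falls replicate 3 was at least 5 times the other 24 h samples. The times did not overlap, which the choice of these genes required. Described genes of like size were Mannan endo-1,4-beta-mannosidase 5 (Ls4g132740.2), which cuts wall mannans, with 110, 106 and 121 CPM at 24 h, against 0.528, 0.533 and 0.430 CPM at 4 h (6.24 ± 0.10), and the chloroplast Thioredoxin-like 1-1 (Ls2g58761.1), with 131, 141 and 132 CPM at 24 h, against 3.33, 3.89 and 2.90 CPM at 4 h (4.96 ± 0.11). Berberine bridge enzyme-like 8 (Ls3g107800.1) had 2.06, 0.761 and 0.569 CPM at 24 h, against 15.8, 38.4 and 13.9 CPM at 4 h (-3.40 ± 0.44). With edgeR its log2 fold change was -4.34, against -3.54 for Ls6g19060.3, so the order of the largest falls depends on the scale.

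The levels at 0 h place these changes in the course of the treatment, as a description, since the same 24 h and 4 h samples chose the genes. Of the 557 genes higher at 24 h, 383 had a 0 h mean below the means of both times, 169 a mean between them and 5 a mean above both. Of the 877 lower genes, 417 had a 0 h mean between the 2, 249 a mean below both, as in the LsCBF genes, and 211 a mean above both. At 7 d, 400 of the 557 had a mean between those of 24 h and 4 h, 93 a mean above both and 64 a mean below both. Among the 877, 458 were still lower at 7 d than at 24 h, 408 lay between the 2 means and 11 lay above both.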

How the data were processed

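RNA-seq of lettuce shoots was analysed, with groups and replicates assigned from the labels. The authors aligned the reads with STAR 2.5.2 to version 8 of the lettuce genome, counted them with featureCounts, filtered genes at 0.5 CPM in 2 samples and deposited CPM values, scaled by library size only. The CPM of a sample add up to 1000000, and 100% were whole multiples of 1 read within 0.01, so whole reads were recovered. Library totals of the 12 samples ran from 18609189 to 25952306 reads.

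The main test was limma 3.58.1 (lmFit, eBayes) in R 4.3.3 on log2(CPM + 1), fitted across the 12 samples in 4 groups, with Benjamini-Hochberg adjustment over the 21696 genes. edgeR 4.0.16 and DESeq2 1.42.0 were run on recovered reads. Other alternatives were the filter, pseudocount, scaling (TMM, RLE), samples fitted, replicate block, variance trend, threshold and each replicate left out. Steps were tested on simulated data.

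The comparison, the gene lists and the rule for named genes were chosen with earlier results of these data known. Lists were words in the gene descriptions of the study's cold-regulated genes. Named were all LsCBF, clock and dehydrin or LEA genes, up to 3 called genes per list and direction, the 10 largest rises and falls with a mean of at least 1 CPM and no overlap, the 8 largest shifts in CPM each way, and 2 reference genes; the text prints a selection of these and, chosen after their values were seen, some further called members of a list. Gene IDs shorten those of the file. No coordinates or sequences were used here, since the annotation at hand pairs none of these IDs. qRT-PCR data were not analysed here.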

Additional observations from a re-analysis of the deposited data

How the results depend on the processing

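The number of genes higher at 24 h stayed between 544 and 706 and the number lower between 838 and 1315 under 12 alternatives, the largest counts being those of DESeq2 on recovered reads, and 0 genes changed direction under any of them. A limma treat test that requires more than a 2-fold change called 158 genes higher and 55 lower, fewer by construction, since 58.2% and 67.3% of the calls were under 1.5 on the log2 scale. Leaving out 1 replicate of 24 h or 4 h gave 507 to 610 genes higher and 757 to 964 lower, with the highest counts without 24 h replicate 3. Same-numbered samples of 24 h and 4 h deviated together little (correlations of 0.04, 0.13 and -0.03). These values cannot show whether the replicates were handled as matched sets. With the replicate number as a block 563 genes were higher and 883 lower. Of 109 named genes called, 69 were not called under the treat test, 2 with a pseudocount of 0.1, 1 under DESeq2, which gave it no adjusted p, and up to 8 when a replicate was left out. At this depth levels up to 3 reads cannot be told from 0.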

Other observations

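A further list, added after the data were seen, held the lettuce genes of the study's phylogeny of CBF-like genes whose IDs match no LsCBF ID. It was not chosen on expression. The paper's counts of CBF-like genes and of those in its CBF cluster leave fewer than 28. Some of the 28 IDs listed may therefore be LsCBF genes under other IDs. Of these 28, 15 were in the table and 12 were tested, with 1 higher and 1 lower at 24 h and a median log2 fold change of -0.30. Ls7g39881.1 had 0.413, 0.951 and 1.33 CPM at 24 h, against 3.17, 2.98 and 3.81 CPM at 4 h (-1.21). Ls2g85720.1 had 8.26, 10.03 and 9.05 CPM at 24 h, against 3.27, 4.96 and 3.98 CPM at 4 h (1.01), and was not called without 24 h replicate 2 (0.94), 4 h replicate 1 (0.89) or 4 h replicate 3 (0.9994). The 15 genes in the table summed to 61.7, 62.7 and 67.5 CPM at 24 h, against 76.0, 70.2 and 71.0 CPM at 4 h.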
